A study of Caenorhabditis elegans with 6 samples.

Results

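22G-RNAs are small RNAs that RNA-dependent RNA polymerases copy from target transcripts and that worm-specific Argonautes carry back to those transcripts. Those bound by WAGO-class Argonautes act in silencing, whereas those bound by CSR-1 mark genes that the germline expresses. In the C. elegans germline the X chromosome is held silent for much of development and carries few germline-expressed genes. LOTR-1 is a germ granule protein with LOTUS and Tudor domains. Described here are the 22G-RNAs antisense to protein-coding genes of the X chromosome in lotr-1 mutants.

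The loci were chosen by position and by their mean raw count. Each was a protein-coding gene on X in the WBcel235 annotation of Ensembl and had a mean raw count of at least 20 over the 6 libraries. Genes of the histone, sperm, ribosomal protein, F-box, MATH and BATH families were left out by name, which removed 8 loci. The rule kept 550 of the 2670 X-linked protein-coding genes in the tables (20.6%), out of 22336 loci in all. No count was recorded on 449 of the X-linked genes. The same rule on the 5 autosomes kept 6461 of 17043 genes (37.9%). The lowest locus inside the minimum was Y34B4A.4, with 6, 5 and 12 raw counts in xf58, xf60 and xf61 and 32, 31 and 34 in wild-type. The highest locus outside it was R09A8.2, with 19, 21 and 34 raw counts in the alleles and 15, 10 and 19 in wild-type. Because the minimum was set on all 6 libraries, 27 of the 550 loci had a mean under 20 in wild-type, and each of these 27 was called up. A further 87 had a mean under 20 in lotr-1, of which 45 were called down.

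The libraries came from whole gravid adults 63 hours after plating. The mutant libraries carried lotr-1(xf58), lotr-1(xf60) or lotr-1(xf61), each made by genome editing in the N2 background and represented by 1 library, and they were compared with 3 libraries of wild-type N2. The xf58 deletion keeps the reading frame and removes nearly all of the LOTUS part, while xf60 and xf61 carry a frameshift with a premature stop. With 1 library each, an allele cannot be told apart from its worm population, and p-values measure the spread among these libraries.

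Total counts lay between 3706296 and 4520488 per library. The number of reads per locus varied little among the wild-type libraries, where the chi-square over the X-linked loci was 1.79 to 2.34 per degree of freedom for any pair. It was 6.57 for xf60 with xf61, 60.5 for xf58 with xf60 and 48.2 for xf58 with xf61. The common dispersion of the 550 loci was 0.116 in lotr-1 and 0.0025 in wild-type. Summed normalized counts on major sperm protein genes were 401 to 463 in lotr-1 and 88.9 to 142 in wild-type, and those on vitellogenin genes were 49.8 to 159 in lotr-1 and 32.1 to 38.6 in wild-type. These sums count small RNAs and not messengers, so they mark no cell type, and their part in the results was not tested. In whole animals, fewer cells of a type and fewer 22G-RNAs per cell cannot be told apart.

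On the TMM scale with the main test, more X-linked loci were called up in lotr-1 than down. A locus was called with the quasi-likelihood test of edgeR on TMM-normalized counts when its adjusted p was below 0.1 and it changed by over 2-fold. Of the 550 X-linked loci 253 were called (46%), against 36.4% of all 9285 tested loci. Among them 155 were called up (28.2%, against 18.8% of all loci) and 98 were called down (17.8%, against 17.6%). Without the 27 loci whose wild-type mean was under 20, 24.5% of 523 were called up and 18.7% down. Their median log2 fold change was 0.19. Autosomal genes with a wild-type mean of at least 20 had 13.1% called up and 19.0% down. The 87 X-linked loci with a lotr-1 mean under 20, of which 45 were called down, stayed in. The filter effect was therefore removed for increases only. The 6456 tested autosomal genes under the same rule had 966 called up (15.0%) and 1199 called down (18.6%). By autosome the share called up ran from 12.6% on chromosome III to 18.7% on chromosome V, and the share called down from 16.0% to 20%. The median log2 fold change was 0.28 on X, -0.10 on the autosomes and 0.01 over all tested loci. The 3 lotr-1 libraries lay above all wild-type libraries at 219 X-linked loci (39.8%, against 29.7% of all loci) and below them at 158 (28.7%, against 32.2%).

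**Figure D1:**
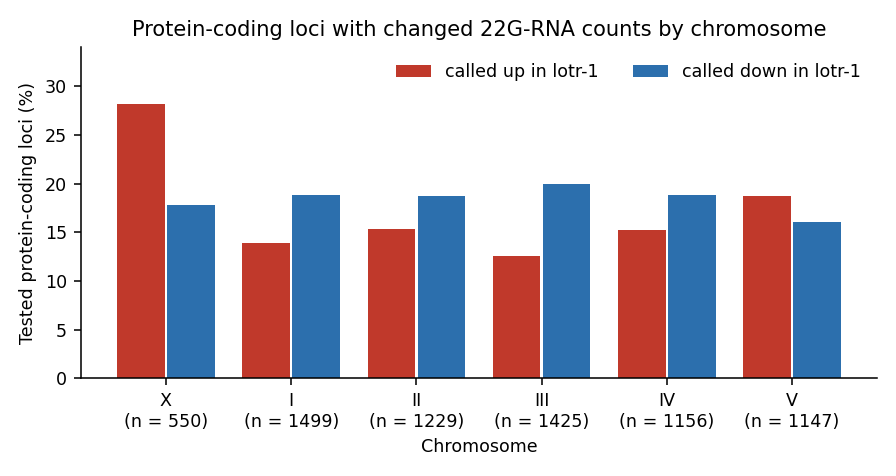
Share of tested protein-coding loci called up (red) or called down (blue) in lotr-1, in percent, for each chromosome with its number of loci. The red bar of X stands at 28.2%, and those of the autosomes lie between 12.6% and 18.7%.

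The balance of calls up and down depended on how the libraries were scaled. No locus called with TMM factors was called in the other direction with total counts. The shift between the scalings was too small to turn a call around, so this is no support for the calls. A scaling factor moves all loci of a library by the same amount on the log2 scale. The gap between the X and autosomal medians could therefore hardly change with it. TMM factors were 0.843, 0.657 and 0.707 in xf58, xf60 and xf61 and 1.35, 1.36 and 1.39 in wild-type. With total counts instead, 47.6% of the X-linked loci were called, against 53.3% of all loci, and 57 X-linked loci were called up (10.4%, against 8.68% of all loci) and 205 were called down (37.3%, against 44.6%). The median then became -0.63 on X, -0.99 on the autosomes and -0.88 over all loci. All 98 loci called down with TMM factors were called down with total counts too, and 57 of the 155 called up remained called up. Both counts follow in large part from the downward shift of all loci with total counts. They do not show that decreases were firmer than increases. The X median stood above the autosomal median by 0.38 on the log2 scale with TMM factors and by 0.36 with total counts. The closeness of these values follows from the nature of scaling and is no support for the gap. Over 16 other fits, including those without 1 library, this gap ranged from 0.30 to 0.48, with the lowest value without xf61. No test of the gap itself was made, since loci are not replicates of a condition.

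The X-linked loci held a smaller share of all 22G-RNA counts in lotr-1, although with the main settings more of them were called up than down. They took 5.75%, 6.37% and 6.29% of the counts in xf58, xf60 and xf61, against 7.02%, 7.08% and 7.09% in the wild-type libraries. Counting error was small beside these differences, with a 95% Wilson interval of 5.73% to 5.78% in xf58 and 6.99% to 7.04% in wild-type replicate 1, although intervals cover counting error only. The groups did not overlap, and the mean was 6.14 ± 0.34% in lotr-1 and 7.06 ± 0.04% in wild-type (SD, n = 3 each), a ratio of 0.870. Within the counts on X-linked and autosomal genes under the rule, the X-linked share was 8.97 ± 0.55% in lotr-1 and 10.5 ± 0.025% in wild-type. On the TMM scale the summed X-linked counts were 366239 ± 64088 in lotr-1 and 223201 ± 1952 in wild-type. This scale raises all counts of the lotr-1 libraries relative to wild-type, with TMM factors of 0.657 to 0.843 against 1.35 to 1.39. The X-linked share of a library is the same on either scale, so the higher sum is no gain of X over other loci. Transposon families took 11.6% to 14.3% of the counts in lotr-1 and 10.1% to 10.6% in wild-type. The 10 highest X-linked loci of each library made up 36.2% to 41.0% of the X-linked counts in lotr-1 and 29.3% to 30.0% in wild-type.

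The largest increase was on ucr-2.1, which encodes a subunit of mitochondrial complex III (chrX:12018429-12021206). Its normalized counts were 841, 12120 and 10607 in xf58, xf60 and xf61, and 174, 150 and 172 in wild-type. All alleles lay above wild-type, but xf58 was far below the frameshift alleles, and the log2 fold change was 5.57 ± 0.94 (SE, edgeR adjusted p = 0.00251). R04E5.8, a gene without a class name (chrX:8801558-8806120), had 11420, 34986 and 28199 normalized counts in the alleles and 1428, 1463 and 1412 in wild-type. The groups were widely separated, and the log2 fold change was 4.12 ± 0.41 (SE, edgeR adjusted p = 0.000243).

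Other large increases had different orders of the alleles. The acyltransferase gene acl-1 had 714, 949 and 1134 normalized counts in xf58, xf60 and xf61, against 71.9, 96.2 and 78.2 in wild-type, so that even the lowest allele was far above the wild-type range. The phospholipase gene ipla-2 had 369, 2700 and 2469 in the alleles, against 174, 165 and 160 in wild-type, and here xf58 was again the lowest. The regulator of G protein signalling rgs-9 had the reverse order, with 3078, 1474 and 2130 in xf58, xf60 and xf61 and 316, 279 and 344 in wild-type. Their log2 fold changes were 3.50 for acl-1, 3.47 for ipla-2 and 2.83 for rgs-9. The last exon of acl-1 overlaps the end of F53H4.6 on the opposite strand. The other members of the largest increases, F20D1.3, F31F6.3 and F08G12.3, had log2 fold changes of 3.1, 2.90 and 2.75. None of the 10 lost its call in any of the other fits, total counts included.

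**Figure D2:**
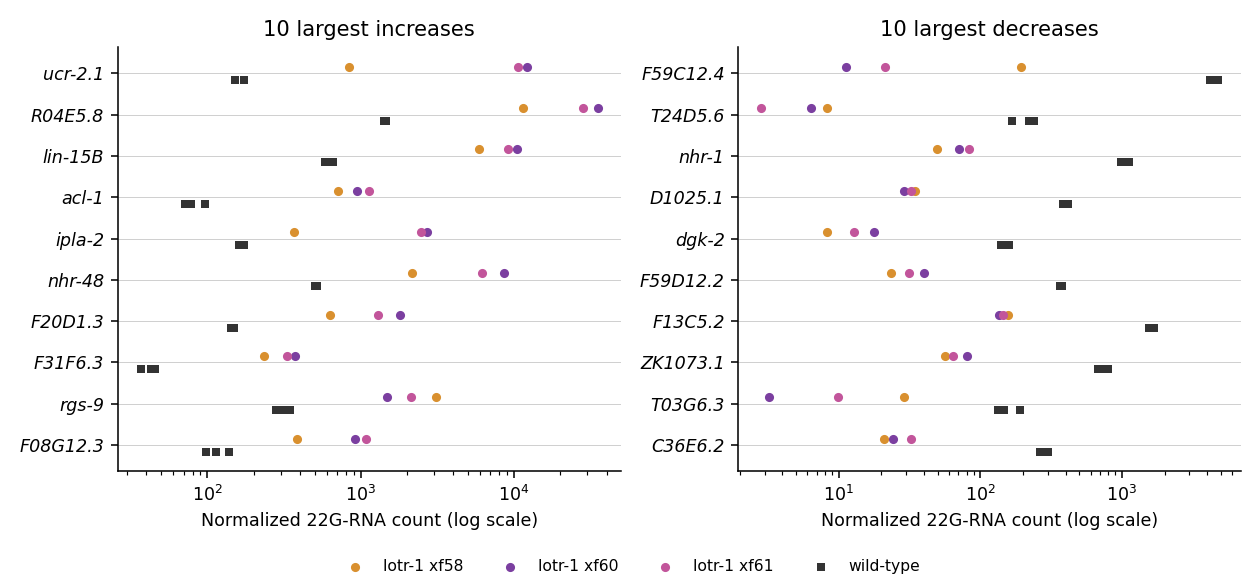
Normalized 22G-RNA counts on a log scale in xf58, xf60, xf61 (circles, upper in each row) and the 3 wild-type libraries (squares, lower) at the 10 loci with the largest increases (left) and the 10 with the largest decreases (right). In each row the circles and squares do not overlap, and for ucr-2.1 xf58 stands at 841, between the wild-type libraries and the other alleles.

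Among the largest decreases, F59C12.4 lost nearly all of its 22G-RNAs. This gene consists of a single exon of 150 bases (chrX:16602473-16602622) and had the highest wild-type level per kilobase of exon among the 550 loci. It had 140, 7 and 15 raw counts in xf58, xf60 and xf61, against 6262, 5995 and 5233 in wild-type. The frameshift alleles were lower than xf58, and the log2 fold change was -5.87 ± 1.02 (SE, edgeR adjusted p = 0.00292). T24D5.6 followed with 8.30, 6.41 and 2.83 normalized counts in the alleles and 168, 221 and 240 in wild-type, a log2 fold change of -5.14 ± 0.32 (SE, edgeR adjusted p = 3.27e-05). It shares an exon with another gene on the same strand, so that its reads are not assigned with certainty. The lotr-1 mean of T24D5.6 was under 20 raw counts, so it reached the minimum only through wild-type.

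The nuclear hormone receptor gene nhr-1 had 49.8, 70.5 and 83.6 normalized counts in xf58, xf60 and xf61, against 993, 1122 and 1105 in wild-type. The alleles lay close together, and the log2 fold change was -3.98 ± 0.23 (SE, edgeR adjusted p = 2.61e-05). The diacylglycerol kinase gene dgk-2 had 8.30, 17.6 and 12.8 in the alleles and 160, 153 and 139 in wild-type, with a log2 fold change of -3.55. The lotr-1 mean of dgk-2 was under 20 raw counts, so it reached the minimum only through wild-type. Of the 98 loci called down, 45 were of this kind. F13C5.2 was the most even of the group, with 156, 135 and 144 in the alleles and 1564, 1586 and 1689 in wild-type. The others, D1025.1, F59D12.2, ZK1073.1, T03G6.3 and C36E6.2, had log2 fold changes between -3.63 and -3.42. All 10 decreases remained called in every other fit.

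Loci called up and loci called down had different levels in wild-type. There, the median normalized count per kilobase of exon was 26.3 for the 155 loci called up, 111.5 for the 98 called down and 42.7 for the 297 not called. The lotr-1 medians were 85.7 for loci called up, 27.9 for loci called down and 46 for the rest. Since the wild-type level is part of the fold change, these medians are a description and no support for a relation. Summed over the loci called up, the mean normalized count was 181853 ± 53346 in lotr-1 and 45619 ± 1553 in wild-type. Over the loci called down it was 10833 ± 1227 in lotr-1 and 42935 ± 418 in wild-type (SD, n = 3 each). Median exon length was 1804 bases for loci called up, 1475 for loci called down and 1853 for the rest, and 51.0%, 46.9% and 47.5% of them lay on the plus strand.

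Loci were also divided into 4 classes of equal size by the mean raw count over all 6 libraries. In the lowest class, from 20 to 36 counts, 31.2% of X-linked loci were called up, against 15.7% of autosomal genes in that range, and 10.9% were called down, against 16.7%. In the second class 25.5% were called up, against 9.59% of autosomal genes, and in the third 23.4%, against 9.70%. In the highest class, from 276 counts on, the shares called up were close, at 32.6% on X and 33.4% on the autosomes, and so were the shares called down, at 16.7% and 16.3%. Median log2 fold changes on X were 0.52, 0.23, -0.01 and 0.49 from the lowest to the highest class, and those on the autosomes were -0.04, -0.14, -0.22 and 0.28. The lowest class held 21 of the 27 loci that reached the minimum only through lotr-1. Without loci of this kind, 18.8%, 22.7%, 22.8% and 32.6% of X-linked loci were called up from the lowest to the highest class, against 8.54%, 8.21%, 8.84% and 32.9% of autosomal genes. Loci that reached the minimum only through wild-type were kept in these shares. The third class of X-linked loci held the largest share of decreases of the 4, at 26.3%, against 20.7% of autosomal genes.

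**Figure D3:**
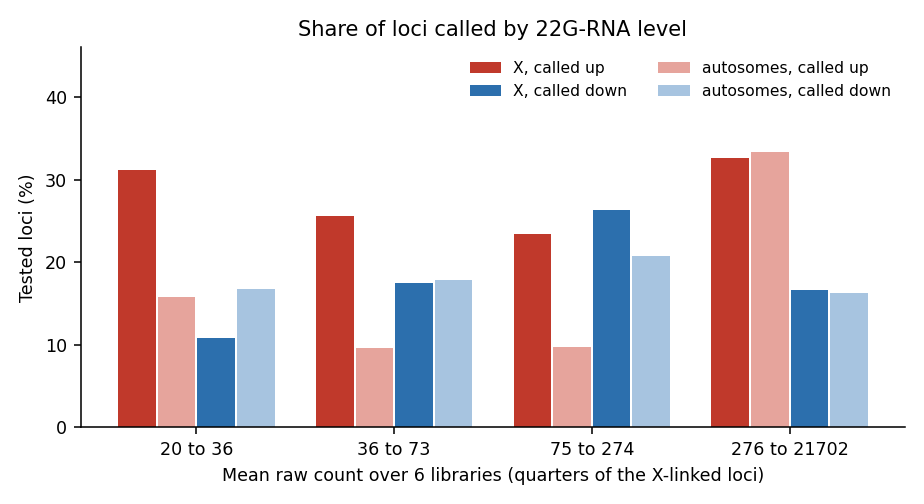
Share of tested loci called up (red) or down (blue) in lotr-1, in percent, for X-linked loci (dark) and autosomal genes (pale) in 4 ranges of mean raw count over the 6 libraries. The dark red bars exceed the pale red bars in the lower 3 ranges, at 31.2% against 15.7% in the lowest, where 21 X-linked loci reached the minimum only through lotr-1, and in the highest range they stand at 32.6% and 33.4%.

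With total counts, more X-linked than autosomal loci were still called up in the lowest class, at 11.6% and 5.68%, but in the highest class the order was 15.2% on X and 22.1% on the autosomes. When the classes were formed from the wild-type level instead, the lowest X-linked class had 47.8% called up and 2.90% called down, against 37.8% and 4.51% of autosomal genes. That split uses the denominator of the fold change, and loci that passed the minimum only through lotr-1 fall into its lowest class.

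Of the 6 loci with the highest wild-type counts, 1 was called. These were got-1.2, a glutamate oxaloacetate transaminase gene, pks-1, a polyketide synthase gene, and M02F4.1, C44C10.5, F02C12.3 and R09H3.3. Per kilobase of exon their wild-type normalized counts ran from 316 in pks-1, whose exons span 23302 bases, to 12145 in got-1.2. At got-1.2 normalized counts were 25948, 35606 and 29994 in xf58, xf60 and xf61 and 16804, 17577 and 17322 in wild-type, a log2 fold change of 0.82 ± 0.15 (SE, edgeR adjusted p = 0.00332), short of 2-fold. R09H3.3 was the locus called, at a log2 fold change of 1.05, and this call was lost without xf60, without a count filter, with DESeq2, with total counts and in the tests against 2-fold. With total counts the other 5 turned to negative log2 fold changes, between -0.62 and -0.09.

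Along the chromosome, increases and decreases were interspersed. Loci were placed in bins of 1 Mb by their midpoints, with 16 to 56 loci each. Loci called up occurred in every bin, as did loci called down. Over the whole of X 28.2% were called up and 17.8% down, and over all tested loci 18.8% and 17.6%. The bins hold few loci, and no test between them was made. The highest median log2 fold change, 1.14, was found between 4 and 5 Mb, where 14 of 26 loci were called up and 4 were called down. The lowest was -0.60 between 17 and 18 Mb, where 2 of 16 loci were called up and 6 were called down. Between 2 and 3 Mb the median was -0.35, with 4 of 30 loci called up and 11 called down. The bins at 8 to 9 Mb and 12 to 13 Mb had medians of 0.71 and 0.69. In bins of 2 Mb the medians lay between -0.07 at 2 to 4 Mb and 0.55 at 14 to 16 Mb, so that the single bins of 1 Mb at the extremes were not matched over wider stretches.

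At the extreme bins the alleles had medians of the same sign. These bins were picked by the fold change of the same libraries, so a shared direction follows largely from the choice. Between 4 and 5 Mb the median log2 difference from wild-type was 0.43, 1.08 and 1.11 in xf58, xf60 and xf61. Between 2 and 3 Mb it was -0.50, -0.51 and -0.23, and between 17 and 18 Mb it was -0.48, -0.75 and -0.39. At 12 to 13 Mb the order was different, with 0.39, 0.05 and 0.51 for these alleles.

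**Figure D4:**
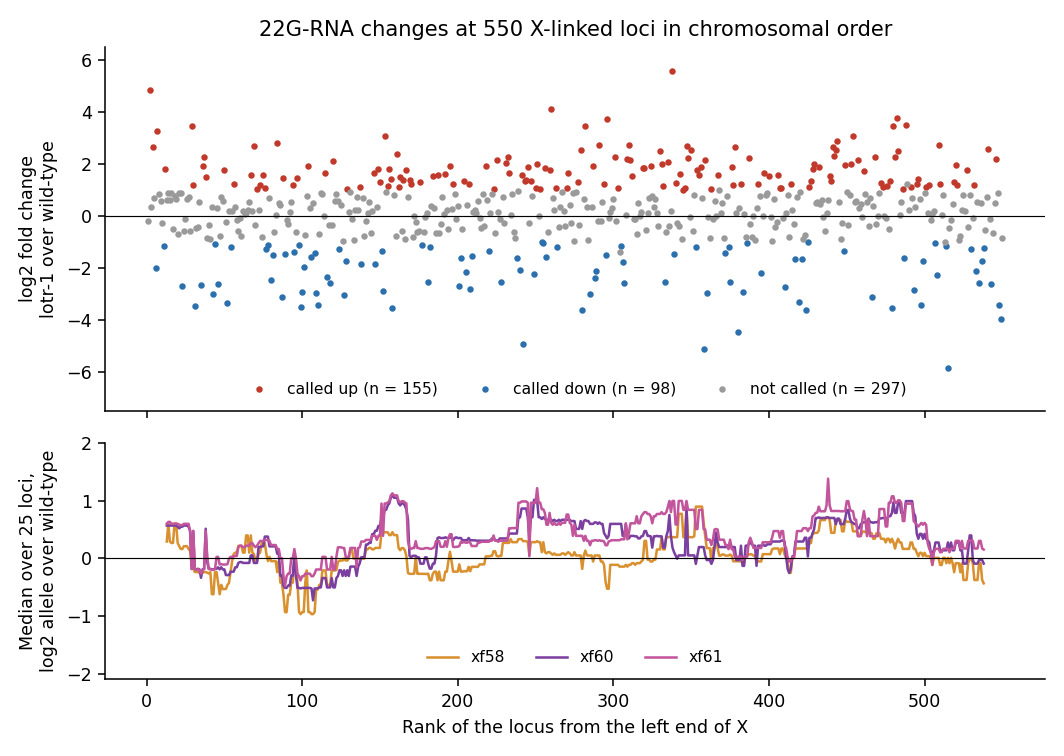
Top, log2 fold change of lotr-1 over wild-type at each of the 550 X-linked loci by rank from the left end of X, coloured by call. Bottom, running median over 25 loci of the log2 difference of each allele from the wild-type mean. Called loci of both directions, 155 up and 98 down, occur along the whole chromosome, and the dip in all alleles near rank 100 covers the 2 to 3 Mb bin with its median of -0.35.

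Neighbouring loci were compared for the direction of their calls. Of 549 pairs of neighbours 121 had both loci called, and in 73 of these (60.3%) the direction was shared. The overall shares called up and down would by themselves give 116 such pairs and a shared direction in 52.5% of them, and no test of grouping was made. There were 15 runs of at least 3 loci called up and 3 runs of at least 3 loci called down. The longest run of increases held 6 loci over 52959 bases (chrX:14819909-14872867). It began with mbk-1, a gene for a minibrain kinase, with 99.6, 285 and 258 normalized counts in xf58, xf60 and xf61 and 77.2, 70.9 and 70.0 in wild-type. The other 5, C27C12.1, C27C12.3, F31F6.1, F31F6.2 and F31F6.3, had log2 fold changes from 1.33 to 2.90. All of the 6 lie on the minus strand. F31F6.2 and F31F6.3 share an exon stretch on that strand, so their counts are not fully separate, and the calls of mbk-1 and C27C12.1 were lost with total counts and with the DESeq2 test against 2-fold, that of mbk-1 also with the edgeR test against 2-fold.

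The longest run of decreases held 4 loci over 47268 bases (chrX:2360097-2407364). It consisted of lgc-40, a ligand-gated ion channel gene, F47G3.3, the palmitoyltransferase gene dhhc-9 and C43H6.4. F47G3.3 had 6.91, 11.2 and 11.3 normalized counts in xf58, xf60 and xf61, against 107, 104 and 123 in wild-type, a log2 fold change of -3.49. In dhhc-9 the counts were 11.1, 24.0 and 15.6 in the alleles and 121, 129 and 133 in wild-type. Both F47G3.3 and dhhc-9 had a lotr-1 mean under 20 raw counts and reached the minimum only through wild-type. The decrease was smaller in lgc-40 and C43H6.4, with log2 fold changes of -1.11 and -1.98. The call of lgc-40 was lost in both tests against 2-fold, and the run is shorter without it.

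A run of 4 increases on the plus strand held nhr-48, ZK662.5, lin-15B and lin-15A (chrX:15708213-15735365), of which ZK662.5 was named after its values were seen. The lin-15 genes act in the synthetic multivulva pathways, and LIN-15B represses germline genes in somatic cells. lin-15B had 5916, 10497 and 9144 normalized counts in xf58, xf60 and xf61, against 658, 639 and 581 in wild-type, a log2 fold change of 3.77 ± 0.24 (SE, edgeR adjusted p = 3.61e-05). lin-15A had 514, 2243 and 1803 in the alleles, against 274, 283 and 252 in wild-type. The lin-15 genes overlap on the same strand for a short stretch, so some of their reads may be exchanged. The nuclear hormone receptor gene nhr-48 had 2168, 8630 and 6157 in the alleles, against 504, 515 and 512 in wild-type, a log2 fold change of 3.47.

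A list of chromatin and synthetic multivulva genes, which also held mes-1, had 8 genes on X, all of them among the 550 loci. Of these 4 were called up and 4 down, with a median log2 fold change of 0.02, where 46% of the X-linked loci and 36.4% of all tested loci were called. Over the other fits 5 to 8 of them were called, with 5 in both tests against 2-fold and without xf61. A list of 8 genes is too short to be set apart from the shares over all loci. It was also chosen with earlier results of these data known. The UTX family of histone demethylases went in both directions. At jmjd-3.2 normalized counts were 144, 97.7 and 108 in xf58, xf60 and xf61, against 1079, 1197 and 1200 in wild-type, and at jmjd-3.3 they were 74.7, 62.5 and 75.1, against 513, 543 and 557. Their log2 fold changes were -3.31 and -2.92. jmjd-3.1 reached -1.01, with 3582, 1559 and 1838 in the alleles and 4583, 4652 and 4815 in wild-type, whereas utx-1, at few counts, had 20.7, 41.7 and 45.3 in the alleles and 14.5, 23.2 and 13.2 in wild-type, a log2 fold change of 1.06. The naming rule took 6 genes of this list, and jmjd-3.1 and utx-1 were named after their values were seen. At utx-1 xf58 lay within the wild-type range, and with total counts the log2 fold change was 0.14 and no longer called. Both utx-1 and jmjd-3.1 lost their calls without xf60, without xf61, without wild-type replicate 3 and in the tests against 2-fold. The call of utx-1 was further lost without wild-type replicate 1, without a count filter and with the DESeq2 Wald test, and that of jmjd-3.1 with TMM factors from genes alone or from autosomal loci.

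Of the other members, the heterochromatin protein gene hpl-1 had 227, 114 and 106 normalized counts in xf58, xf60 and xf61, against 331, 329 and 358 in wild-type, and a log2 fold change of -1.19. This call was lost without xf61 and in both tests against 2-fold. mes-1, which encodes a receptor-like protein needed for unequal division of germline precursors, had 149, 216 and 282 in the alleles, against 64.2, 53.4 and 43.6 in wild-type. Its log2 fold change was 2.00 ± 0.27 (SE, edgeR adjusted p = 0.000876).

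Of 23 nuclear hormone receptor genes on X, 6 were among the 550 loci, of which nhr-48 and nhr-28 were called up and nhr-1, nhr-17, nhr-40 and nhr-3 down. Called were 46% of the X-linked loci and 36.4% of all tested loci, and 6 genes are too few to set the family apart. nhr-28 had 830, 896 and 1078 normalized counts in xf58, xf60 and xf61, against 163, 124 and 131 in wild-type, a log2 fold change of 2.74. nhr-40 had 16.6, 28.8 and 21.2 in the alleles, against 167, 166 and 187 in wild-type, and nhr-17 had 4.15, 14.4 and 5.67, against 63.5, 62.5 and 61.8. Both share exon sequence with a gene on the same strand. Both also had a lotr-1 mean under 20 raw counts and reached the minimum only through wild-type. nhr-3 lay at the threshold, with a log2 fold change of -1.01, and its call was lost without xf61, without wild-type replicate 3, in both tests against 2-fold, with DESeq2 size factors in edgeR and with TMM factors from genes alone or from autosomal loci.

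Of 4 homeobox genes, ceh-40 was called up and ceh-41 down, where 46% of the X-linked loci and 36.4% of all tested loci were called. ceh-40 had 51.2, 14.4 and 174 normalized counts in xf58, xf60 and xf61, against 12.2, 15.5 and 14.0 in wild-type, so that xf60 lay within the wild-type range. With a wild-type mean under 20 raw counts, ceh-40 reached the minimum only through lotr-1, and all loci of this kind were called up. Its log2 fold change was 2.53, which dropped to 1.27 without xf61, and its call was lost with total counts and in both tests against 2-fold. ceh-41 had 34.6, 52.9 and 48.2, against 277, 248 and 230, a log2 fold change of -2.48. Among 4 ligand-gated channel genes, lgc-40 was called down and lgc-53 up at a log2 fold change of 1.2. Lists of 4 genes are too short to be set apart from the shares over all loci. The call of lgc-53 was lost without xf60, without wild-type replicate 2, with total counts and in both tests against 2-fold. That of lgc-40 was lost in both tests against 2-fold too.

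The remaining lists were short. The X signal, sex determination and dosage compensation list had 5 of its 7 genes among the 550 loci, and none was called. Called were 46% of the X-linked loci and 36.4% of all tested loci, and 5 genes are too few to set the list apart. Chosen after its values were seen, xol-1, the switch gene of sex determination, had 539, 1112 and 939 normalized counts in xf58, xf60 and xf61 and 1437, 1693 and 1552 in wild-type, a log2 fold change of -0.85 (edgeR adjusted p = 0.0307). It passed the p threshold but not the 2-fold change, and so did ceh-39 at -0.62. The log2 fold changes of sdc-1, sdc-2 and dpy-22 were -0.16, 0.14 and 0.66. In the small RNA list, 3 of 5 X-linked genes were among the loci, and none was called, again too few to set against these shares. The microRNA Argonaute gene alg-1 had a log2 fold change of 0.89, the nuclear Argonaute gene nrde-3 had 0.90, and the RNAi gene rsd-3 had -0.37. These results depended on the scaling. With total counts xol-1, ceh-39, sdc-1 and rsd-3 were called down, at log2 fold changes of -1.79, -1.52, -1.08 and -1.29, and sdc-2, dpy-22 and alg-1 turned negative at -0.77, -0.26 and -0.04. Without xf60 or without a count filter xol-1 was called down as well. Without xf58, 2 of the 3 small RNA genes were called up, and 1 of them without wild-type replicate 2.

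The neuron and muscle list had 3 of its 22 X-linked genes among the 550 loci, with none called except without xf58, where 2 were called up. With 3 genes it is too short to set against the 46% of X-linked and 36.4% of all tested loci called. The synaptic scaffold gene unc-10 had 3985, 4679 and 4756 normalized counts in xf58, xf60 and xf61 and 2720, 2874 and 3059 in wild-type, a log2 fold change of 0.63 with TMM factors and -0.27 with total counts. Vitellogenin, collagen, neuropeptide, detoxification, basement membrane and developmental transcription factor genes had no member with a mean of 20 counts, out of 5, 27, 34, 14, 6 and 9 genes of these lists on X. The single potassium channel locus, twk-21, had a log2 fold change of 0.20.

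The alleles did not contribute equally. Relative to the wild-type mean, 103, 166 and 173 of the 550 loci were more than 2-fold up in xf58, xf60 and xf61, where the shares over all tested loci were 17.3%, 19.0% and 19.4%. More than 2-fold down were 120, 114 and 97, where the shares over all loci were 13.2%, 22.6% and 22.2%. In all 3 alleles 82 loci were more than 2-fold up (14.9%, against 12.3% of all loci) and 76 were more than 2-fold down (13.8%, against 9.09%). The median difference from wild-type over the 550 loci was 0.08, 0.31 and 0.36 on the log2 scale for xf58, xf60 and xf61. It exceeded the autosomal median by 0.16, 0.44 and 0.51 with TMM factors and by 0.16, 0.44 and 0.50 with total counts. A change of scaling could hardly alter these differences, so the values with total counts add no support. The order of the alleles themselves changed with the scaling, since with total counts their medians over the X-linked loci were -0.60, -0.71 and -0.56.

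Among the 253 called loci, xf58 had the smallest change in the direction of the call at 151 (59.7%), xf60 at 59 and xf61 at 43. This held mainly for increases. The 155 loci called up had medians of 1.13, 1.73 and 1.80 for xf58, xf60 and xf61, while the 98 called down had medians of -2.16, -2.0 and -1.79. These medians are a description, since the same libraries made the calls, and with 1 library per allele no test between alleles was possible. The counts by allele were not set against called loci outside X, so they mark no trait of X. They also rest on TMM factors, which were 0.843 in xf58 and 0.657 and 0.707 in xf60 and xf61. With total counts the order of the allele medians over the X-linked loci was different.

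With TMM factors, xf58 differed from the mean of xf60 and xf61 by more than 2 on the log2 scale at 14 loci. It was the lower one at 11 of them. Besides ucr-2.1, ipla-2 and F53H4.6 these included rme-4, an endocytosis gene named after its values were seen, with 58.1, 245 and 280 normalized counts in xf58, xf60 and xf61 and 16.1, 11.2 and 15.6 in wild-type. Its wild-type mean was under 20 raw counts, so rme-4 reached the minimum only through lotr-1. At asb-2, a gene for a subunit of mitochondrial ATP synthase also chosen afterwards, xf58 lay below wild-type, with 122, 470 and 576 normalized counts in xf58, xf60 and xf61 and 146, 151 and 140 in wild-type. It was one of 8 loci called up whose groups overlapped. The count of 11 among 14 was not set against loci outside X.

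In the other direction, xf58 was the higher one at F59C12.4, dgn-1 and dot-1.2. The dystroglycan gene dgn-1 had 534, 78.5 and 53.8 normalized counts in xf58, xf60 and xf61, against 554, 594 and 584 in wild-type, so that only the frameshift libraries were depleted. It was not called (log2 fold change -1.37, edgeR adjusted p = 0.178). dot-1.2, a homolog of histone methyltransferases of the DOT1 family, had 372, 41.7 and 19.8, against 888, 853 and 796, and was called at a log2 fold change of -2.54 (edgeR adjusted p = 0.0567). Its relative dot-1.3 went the other way, with 147, 125 and 174, against 39, 33.7 and 22.2, a log2 fold change of 2.22. These 3 genes were named after their values were seen.

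**Figure D5:**
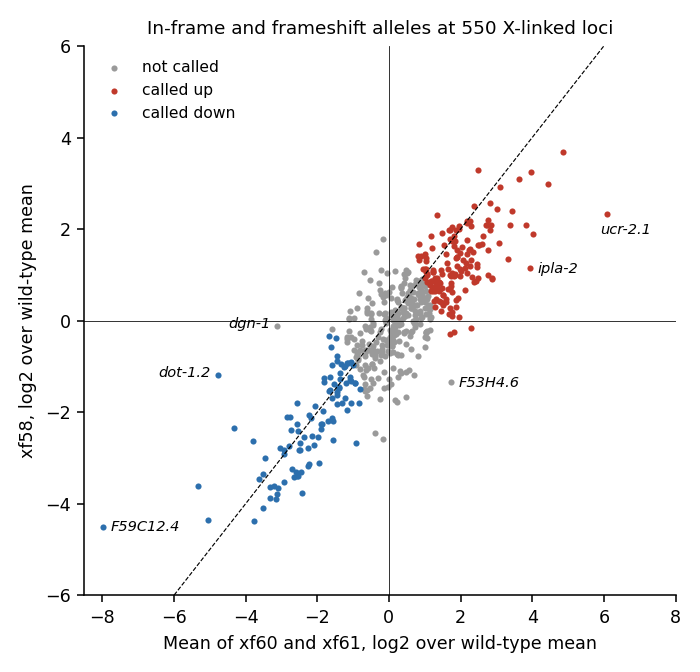
Log2 difference from the wild-type mean of xf58 (vertical) against the mean of xf60 and xf61 (horizontal) at the 550 X-linked loci, coloured by call, with the line of equality dashed. With TMM factors, loci called up lie mostly below the line, as with ucr-2.1 and ipla-2, while dgn-1 and dot-1.2 lie above it and F53H4.6 falls in the lower right quadrant.

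A group of near-identical loci shows the limit of read assignment. AC8.3 and AC8.10 had nearly the same raw counts, 5082 and 5142 in xf58, as did the pair of loci that share the name AC8.4, with 2243 and 2316 in xf58. These were chosen after their values were seen, and they may hold reads of each other because a read with several equally good locations was placed at random.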

How the data were processed

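22G-RNAs of gravid adults were measured in 3 lotr-1 libraries (xf58, xf60 and xf61) and 3 wild-type libraries. According to the labels and methods, the authors kept inserts of 18 to 30 bases (cutadapt 2.4) and aligned them with Bowtie 1.2.2 to the WBcel235 build, placing reads of several equal locations at random, and then counted 22G-RNAs antisense to exons and transposon families with featureCounts 1.6.2. The authors deposited these counts as whole numbers without normalization. Gene positions, strands and biotypes were taken from Ensembl release 115 on the same build, in which 171 gene rows had no entry. No genome sequence was used here.

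Group and allele came from the sample labels, and the 3 alleles served as replicates, as in the methods. Counts were scaled with TMM factors, filtered with filterByExpr and tested in edgeR 4.0.16 (R 4.3.3, quasi-likelihood), over all 9285 loci that passed, with Benjamini-Hochberg adjustment over all of them. All 550 X-linked loci and 6456 of the 6461 autosomal ones passed the filter. Normalized counts are counts per effective library size times the mean effective size. Single alleles were compared on log2 values with a prior count of 2. The procedure was tested on simulated data. Named were the 10 largest increases and decreases among the 119 called loci whose mean reached 100 counts and whose groups did not overlap, the 6 highest loci of wild-type, called members of gene lists (at most 6 per list), the longest runs, and loci where xf58 opposed the other alleles. The members and lists were chosen with earlier results of these data known.

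Alternatives were DESeq2 1.42.0, tests against a 2-fold change, other scalings, filters and thresholds, a replicate block, and fits without 1 library each.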

Additional observations from a re-analysis of the deposited data

Results flagged for a closer look

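At F53H4.6 (chrX:15851951-15860606) xf58 differed from the frameshift alleles in direction. The log2 difference from the wild-type mean was -1.35, 1.76 and 1.73 for xf58, xf60 and xf61, with 69.1, 611 and 598 normalized counts against 183, 199 and 159 in wild-type. It was the single locus of the 550 with more than 2-fold changes in opposite directions, and it was not called (log2 fold change 1.24, edgeR adjusted p = 0.16). With 1 library per allele this difference was not tested. Its end overlaps acl-1 on the other strand.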

How the results depend on the processing

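Of the 550 X-linked loci 46% were called with the main settings, 28.2% up and 17.8% down. Against a 2-fold null the share was 30.2% (16.5% up) in edgeR and 20.9% (9.64% up, 11.3% down) in DESeq2. Without a fold cutoff it was 69.1%, with 27.3% down. With total counts 10.4% were called up and 37.3% down, the median log2 fold change turned to -0.63, and log2 fold changes reversed at got-1.2 (-0.089), pks-1 (-0.53), M02F4.1 (-0.32), C44C10.5 (-0.10) and F02C12.3 (-0.62). Total counts centred on the median of all loci, added after seeing the data, gave 17.1% up. The difference between the median of xf58 and that of the frameshift alleles, -0.26 with TMM factors, also reversed with total counts (0.032). The spread between the highest and lowest bin median was 1.73 in 1 Mb bins and 0.62 in 2 Mb bins, and the share called up in the lowest class became 47.8% when split by wild-type level. Among the 523 loci with a wild-type mean of at least 20, 24.5% were up and 18.7% down, with loci that passed only through wild-type kept. The causes were not tested.

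Leaving out each library gave 43.3% to 51.6% called, 25.6% to 32.2% up, 17.3% to 19.5% down, a median of 0.22 to 0.33 and a ratio of the X-linked share of 0.853 to 0.897. The replicate numbers did not pair the libraries (correlations of same-numbered deviations 0.0083, 0.0339 and -0.0343), and with the replicate block 46.4% were called, 28.2% up and 18.2% down, with a median of 0.23. Of the 48 named loci, 38 had the same outcome with total counts and 40 with the DESeq2 test against 2-fold. Loci called in neither fit, such as F53H4.6, count as the same here, so fewer loci than these kept a call.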
